A study of Homo sapiens with 12 samples.

Results

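The 8 genes described here encode enzymes, binding proteins and receptors of retinoic acid, the active form of vitamin A. They are LRAT, DHRS3, ALDH1A1, CRABP1, CRABP2, RARA, RARG and RXRA, chosen by name for these roles with earlier results of these data known. All 8 were among the 13310 genes of the deposited table. Polyadenylated RNA was sequenced from H9, a widely used line of human embryonic stem cells that the labels call wild type, in 12 libraries, with 3 in each of 4 groups. UNDIF is H9 kept in stem cell medium on Matrigel. NEUR is H9 taken through neural differentiation, first with the SMAD pathway inhibitors A83-10 (as the labels spell it) and dorsomorphin and then in a medium for neural stem cells that held EGF, bFGF and a neural supplement. DMSO_NEUR had the solvent DMSO during differentiation, and FT671_NEUR had FT671, an inhibitor of the deubiquitinating enzyme USP7; its dose and duration were not given in the sources used here. The treatment field of DMSO_NEUR reads undifferentiated, and its titles, which read neural, were followed. All 4 groups come from 1 cell line, and whether the replicates were separate cultures was not stated, so the p-values rest on library-to-library spread, which may be technical.

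Cells take up retinol, store it as retinyl esters made by LRAT, and oxidise it to retinaldehyde and then, with the ALDH1A enzymes, to retinoic acid; DHRS3 turns retinaldehyde back into retinol. CRABP1 and CRABP2 carry retinoic acid in the cytoplasm, CYP26 enzymes break it down, and it acts by binding the nuclear receptors RARA, RARB and RARG, which sit on DNA as pairs with RXR receptors. In the embryo the pathway is known for patterning the hindbrain and spinal cord and for promoting neuronal differentiation.

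LRAT and CRABP1 had a similar pattern over the 4 groups, with UNDIF highest, FT671_NEUR next and NEUR and DMSO_NEUR lowest. Within groups, the order of the libraries differed between these genes. ALDH1A1 moved the opposite way in NEUR against UNDIF and in FT671_NEUR against DMSO_NEUR, but like them was lower in FT671_NEUR than in UNDIF. Promoters of LRAT, CRABP1 and ALDH1A1 are shown. Each runs from 250 bases before to 50 bases after the gene's start, 5′ to 3′ on the gene's strand, from RefSeq on GRCh38.p14; the authors' processing used another build, so no read position is implied. They lie at chr4:154743750-154744049 on the plus strand, chr15:78340103-78340402 on the plus strand and chr9:72953004-72953303 on the minus strand. Capitals mark CCAAT and GGGCGG, common promoter motifs, on either strand.
LRAT: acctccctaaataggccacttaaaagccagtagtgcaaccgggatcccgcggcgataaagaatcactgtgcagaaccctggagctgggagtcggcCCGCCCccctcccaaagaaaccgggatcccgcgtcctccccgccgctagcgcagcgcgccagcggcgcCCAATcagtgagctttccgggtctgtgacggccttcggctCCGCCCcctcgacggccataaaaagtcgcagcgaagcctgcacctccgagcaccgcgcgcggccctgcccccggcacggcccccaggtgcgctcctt
CRABP1: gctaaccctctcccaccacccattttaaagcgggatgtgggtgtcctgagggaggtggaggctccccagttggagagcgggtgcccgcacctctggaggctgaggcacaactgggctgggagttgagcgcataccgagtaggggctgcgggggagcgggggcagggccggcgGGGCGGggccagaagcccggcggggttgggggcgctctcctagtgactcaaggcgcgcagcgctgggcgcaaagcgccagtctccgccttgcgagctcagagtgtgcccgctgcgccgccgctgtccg
ALDH1A1: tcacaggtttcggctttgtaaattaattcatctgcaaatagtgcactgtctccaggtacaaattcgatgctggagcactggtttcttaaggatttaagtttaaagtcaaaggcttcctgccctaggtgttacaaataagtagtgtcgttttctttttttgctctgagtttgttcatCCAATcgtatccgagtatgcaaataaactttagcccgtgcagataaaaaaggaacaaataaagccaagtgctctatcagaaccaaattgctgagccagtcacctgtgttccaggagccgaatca
The ALDH1A1 promoter had a GC content of 40.3%, at percentile 3.35 of 15057 promoters of 10189 genes of the table, whereas LRAT had 67.3% and CRABP1 70.3% beside a median of 65%. Retinoic acid receptors bind pairs of hexamers in the same orientation, so the hexamer AGGTCA, its variant GGGTCA, the variant AGTTCA and also the variant GGTTCA were searched on both strands, singly and as direct repeats with 1, 2 or 5 bases between them. RefSeq gave 13 promoters for the 8 genes, of which 5 held a hexamer, against 32.0% of all promoters. None of the 13 held a direct repeat, against 0.186% of all promoters, which says only that these letters are not in these windows. CYP26A1, a retinoic acid response gene in many cell types, did hold one. It is shown as an example with both hexamers in capitals, at chr10:93073797-93073825 on the plus strand, where each hexamer is the reverse complement of AGTTCA and the repeat has 5 bases between them.
CYP26A1: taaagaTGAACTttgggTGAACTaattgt

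Depth over the table's genes was 15906471 to 17271155 reads a library, and the mean Pearson r of a library with the others of its group, across genes that are not independent replicates, ran from 0.986 to 0.996. NEUR replicate 3 had the lowest value, and its log2 difference from the mean of the other NEUR libraries ran from -0.16 for ALDH1A1 to 0.51 for CRABP1 among the 8 genes. Values are normalized read counts, and limma log2 fold changes are on log2(normalized count + 1) and given with their SE, so they understate changes of genes with few reads. USP7 itself fell in FT671_NEUR against DMSO_NEUR by 0.58 on the log2 scale (SE 0.0586, adjusted p = 9.51e-08), which does not measure inhibition of the protein.

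In neural differentiation, all 8 genes passed the test in NEUR against UNDIF, 2 higher and 6 lower, where 82.0% of all genes passed, 40.4% higher and 41.6% lower. A count of calls near that background is not a result about the 8 genes. All 8 had groups that did not overlap, as did 80.2% of all genes. The median log2 fold change of the 8 genes was -0.91 beside -0.03 for all genes, and their median size was 1.95 beside 0.62. The 8 genes were chosen with earlier results of these data known, so these medians do not test the set. LRAT and CRABP1 lost nearly all of their reads, RARG and DHRS3 fell, ALDH1A1 and RARA rose, and CRABP2 and RXRA fell by less than 1.6-fold.

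With FT671, all 8 genes passed the test again in FT671_NEUR against DMSO_NEUR, 6 higher and 2 lower, where 79.8% of all genes passed, 40.2% higher and 39.7% lower. All 8 had groups that did not overlap, as did 84.7% of all genes. The 6 genes that were lower in NEUR than in UNDIF were the 6 that were higher with FT671, and the 2 that were higher, ALDH1A1 and RARA, were the 2 that were lower. Of 8261 genes called in both comparisons, 3775 (45.7%) had opposite directions. The comparisons have no library in common, but the 8 genes were chosen with such results known, so no test is given. The median log2 fold change was 1.17 beside 0.01 for all genes, and the median size 1.41 beside 0.60. In bulk RNA, fewer cells of a type and less RNA per cell cannot be told apart, which holds for every value below.

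**Figure D1:**
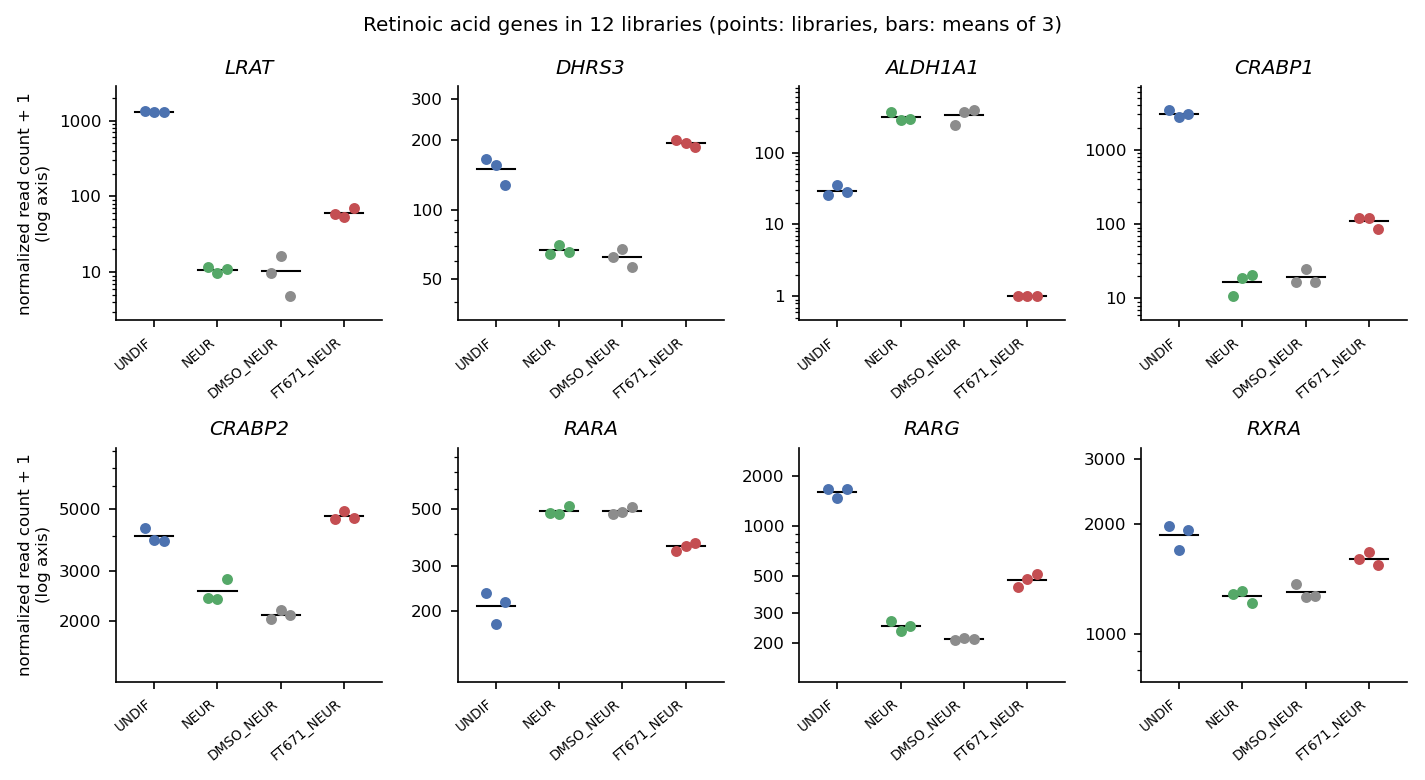
Normalized read count plus 1 (log axis) of the 8 genes in each of the 12 libraries, grouped as UNDIF, NEUR, DMSO_NEUR and FT671_NEUR; points are libraries and bars are means of 3. LRAT and CRABP1 are highest in UNDIF by far, ALDH1A1 has no read in the 3 FT671_NEUR libraries (drawn at 1), and NEUR and DMSO_NEUR sit close together in every panel.

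LRAT (ENSG00000121207), the enzyme that stores retinol as esters, was highest in stem cells. UNDIF libraries held 1353, 1312 and 1287 normalized counts, NEUR 10.8, 8.81 and 9.96, DMSO_NEUR 8.75, 15.5 and 3.91, and FT671_NEUR 58.3, 52.6 and 70.1. The UNDIF libraries were far above all others, FT671_NEUR lay above both other differentiated groups without overlap, and NEUR and DMSO_NEUR overlapped. The mean fell from 1317 ± 33.5 (SD, n = 3) in UNDIF to 9.84 ± 0.981 in NEUR, 134-fold, a log2 fold change of -6.93 (SE 0.30, limma adjusted p = 1.64e-12). It was 6.43-fold higher in FT671_NEUR (60.3 ± 8.91) than in DMSO_NEUR (9.39 ± 5.82), with a log2 fold change of 2.72 (SE 0.30, adjusted p = 3.07e-07). FT671_NEUR still had 21.8-fold less than UNDIF. With a pseudocount of 8, which shrinks the change of low genes, the values were -6.22 for NEUR against UNDIF and 2.02 for FT671_NEUR against DMSO_NEUR.

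DHRS3 (ENSG00000162496), which reduces retinaldehyde to retinol and is induced by retinoic acid in many cells, followed the same order at lower amplitude, except that its highest level was with FT671. Its counts were 165.5, 155 and 126 in UNDIF, 63.6, 69.5 and 64.8 in NEUR, 61.3, 66.8 and 55.7 in DMSO_NEUR, and 200.3, 194 and 186 in FT671_NEUR. NEUR and DMSO_NEUR overlapped, and FT671_NEUR lay above every other library. DHRS3 was 2.26-fold lower in NEUR than in UNDIF (log2 fold change -1.16, SE 0.14, adjusted p = 8.11e-07) and 3.15-fold higher in FT671_NEUR than in DMSO_NEUR (1.64, SE 0.14, adjusted p = 9.64e-09). FT671_NEUR against UNDIF gave 0.38 (SE 0.14, adjusted p = 0.0166), a difference that did not pass when values were scaled to library totals (0.11, adjusted p = 0.458), without UNDIF replicate 3 (0.27, adjusted p = 0.104) or without FT671_NEUR replicate 1 (0.35, adjusted p = 0.0518).

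ALDH1A1 (ENSG00000165092), which oxidises retinaldehyde to retinoic acid, had the largest fitted fold change of the 8 genes in FT671_NEUR against DMSO_NEUR. It had 24.9, 33.9 and 27.0 counts in UNDIF, 366, 279.8 and 289 in NEUR, 243, 360.3 and 389.9 in DMSO_NEUR, and no read in any of the 3 FT671_NEUR libraries. NEUR and DMSO_NEUR overlapped, and both were above UNDIF. ALDH1A1 rose 10.9-fold in NEUR, from 28.6 ± 4.71 to 311 ± 47.2 (log2 fold change 3.40, SE 0.21, adjusted p = 2.13e-10). Against a floor of 3 reads over the FT671_NEUR group, its level there was at least 313-fold lower than in DMSO_NEUR (331 ± 77.6) and at least 27.0-fold lower than in UNDIF. With 3 reads allowed in each library, the first bound is 104-fold. The bounds cover counting error only. In FT671_NEUR against DMSO_NEUR it had the seventh largest fall of all genes by fitted log2 fold change.

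CRABP1 (ENSG00000166426), which binds retinoic acid in the cytoplasm, changed as LRAT did. It had 3399, 2759.5 and 3003 counts in UNDIF, 9.78, 17.6 and 19.9 in NEUR, 15.6, 24.2 and 15.6 in DMSO_NEUR, and 119.7, 119 and 86.0 in FT671_NEUR. NEUR and DMSO_NEUR overlapped, and FT671_NEUR stood above them and far below UNDIF. It was 194-fold lower in NEUR than in UNDIF (log2 fold change -7.56, SE 0.23, adjusted p = 1.92e-14), 5.86-fold higher in FT671_NEUR than in DMSO_NEUR (2.50, SE 0.23, adjusted p = 3.15e-08) and 28.2-fold lower in FT671_NEUR than in UNDIF.

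CRABP2 (ENSG00000143320), which delivers retinoic acid to the receptors in the nucleus, stayed abundant in every group. It had 4265, 3889 and 3844 counts in UNDIF, 2417, 2401 and 2821 in NEUR, 2034, 2192 and 2093 in DMSO_NEUR, and 4611, 4929 and 4634 in FT671_NEUR. No groups overlapped, DMSO_NEUR being lowest and FT671_NEUR highest. It was 1.57-fold lower in NEUR than in UNDIF (log2 fold change -0.65, SE 0.07, adjusted p = 3.16e-07) and 2.24-fold higher in FT671_NEUR than in DMSO_NEUR (1.17, SE 0.07, adjusted p = 1.77e-10). FT671_NEUR against UNDIF gave 0.24 (SE 0.07, adjusted p = 0.00511), and scaling to library totals turned this to -0.03 (adjusted p = 0.713). Per kilobase of transcript, CRABP2 and CRABP1 were about level in UNDIF, with a ratio of 0.983 ± 0.0619 (SD, n = 3). The ratio was 131 ± 46.7 in NEUR, 88.5 ± 18.1 in DMSO_NEUR and 33.3 ± 6.10 in FT671_NEUR, so CRABP2 made up nearly all RNA of the pair in the differentiated groups.

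**Figure D2:**
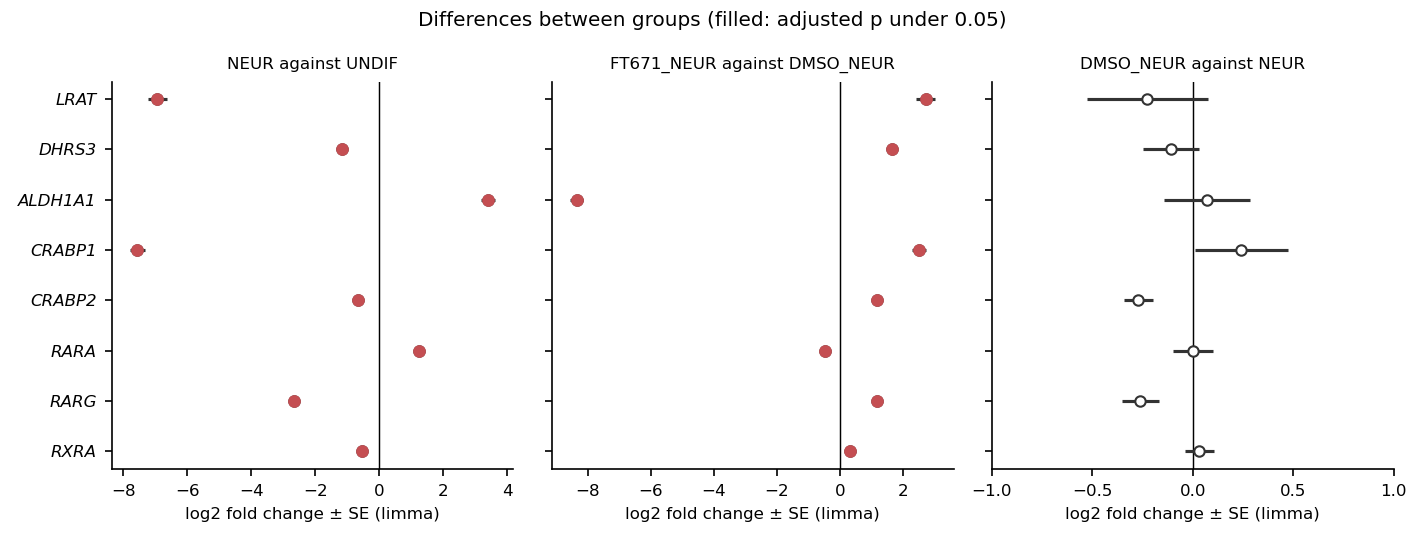
log2 fold change with its SE from limma for the 8 genes in 3 comparisons (x axes differ; filled points have an adjusted p under 0.05). All 8 pass in NEUR against UNDIF and in FT671_NEUR against DMSO_NEUR, on opposite sides of 0, and none passes in DMSO_NEUR against NEUR.

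RARA (ENSG00000131759) and RARG (ENSG00000172819), receptors for retinoic acid, changed in opposite directions. RARG had 1660.0, 1465 and 1666 counts in UNDIF, 269.9, 233 and 251 in NEUR, 206, 212 and 209 in DMSO_NEUR, and 428, 481 and 515 in FT671_NEUR. No groups overlapped. RARG was 6.36-fold lower in NEUR than in UNDIF (log2 fold change -2.66, SE 0.09, adjusted p = 1.02e-13) and 2.27-fold higher in FT671_NEUR than in DMSO_NEUR (1.17, SE 0.09, adjusted p = 4.22e-09), remaining 3.36-fold below UNDIF.

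RARA had 234, 178 and 216 counts in UNDIF, 481, 477 and 516 in NEUR, 476.5, 487 and 511 in DMSO_NEUR, and 344, 358 and 369 in FT671_NEUR. NEUR and DMSO_NEUR overlapped, and FT671_NEUR lay between them and UNDIF. It was 2.35-fold higher in NEUR than in UNDIF (log2 fold change 1.24, SE 0.10, adjusted p = 5.96e-09), 1.38-fold lower in FT671_NEUR than in DMSO_NEUR (-0.46, SE 0.10, adjusted p = 0.000512) and 1.71-fold higher in FT671_NEUR than in UNDIF. Per kilobase of transcript, the RARG to RARA ratio was 7.89 ± 0.595 in UNDIF, 0.526 ± 0.0438 in NEUR, 0.438 ± 0.0148 in DMSO_NEUR and 1.36 ± 0.0789 in FT671_NEUR (SD, n = 3). RARG was thus the more abundant of the pair in stem cells and with FT671, and RARA in the other differentiated groups, with no overlap between those groups of libraries. The summed level of both was 609 ± 47.6 counts per kilobase in UNDIF and 247 ± 9.73, 232 ± 6.19 and 278 ± 18.9 in NEUR, DMSO_NEUR and FT671_NEUR.

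RXRA (ENSG00000186350), the shared partner receptor, had the smallest log2 fold change of the 8 genes in NEUR against UNDIF and in FT671_NEUR against DMSO_NEUR. It had 1972, 1700.1 and 1919.6 counts in UNDIF, 1289, 1308 and 1212 in NEUR, 1370.2, 1258 and 1271 in DMSO_NEUR, and 1599, 1672 and 1539.5 in FT671_NEUR. NEUR and DMSO_NEUR overlapped. It was 1.47-fold lower in NEUR than in UNDIF (log2 fold change -0.55, SE 0.07, adjusted p = 2.19e-06) and 1.23-fold higher in FT671_NEUR than in DMSO_NEUR (0.30, SE 0.07, adjusted p = 0.00103). FT671_NEUR against UNDIF gave -0.21 (SE 0.07, adjusted p = 0.0101). Its level is not set beside those of other genes, because its annotated transcripts differ much in length.

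Between UNDIF and FT671_NEUR, whose values above share libraries with the other comparisons, 3 of the 8 genes were higher and 5 lower, where 88.0% of all genes passed, 44.0% higher and 43.9% lower, and 90.2% had groups that did not overlap. DHRS3, CRABP2 and RARA were the higher ones, of which CRABP2 and DHRS3 did not hold under library totals, as given above. DMSO_NEUR against UNDIF gave 2 higher and 6 lower, where 80.1% of all genes passed, 39.1% higher and 41.0% lower, and 83.0% had groups that did not overlap. DMSO_NEUR against NEUR gave no call among the 8 genes and 53 in all genes (0.398%), of which 1 was higher (0.00751%) and 52 lower (0.391%). CRABP2 (log2 fold change -0.27, unadjusted p = 0.00175, adjusted p = 0.187) and RARG (-0.26, unadjusted p = 0.0123, adjusted p = 0.455) had groups that did not overlap in limma's DMSO_NEUR against NEUR, as did 12.3% of all genes.

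The other enzymes that make retinoic acid differed between the groups in which ALDH1A gene was most abundant. ALDH1A2, the main source of retinoic acid in the early mouse embryo, fell from 173 ± 3.02 counts in UNDIF to 7.90 ± 4.02 in NEUR (log2 fold change -4.40, SE 0.33, adjusted p = 2.31e-09) and was 22.2 ± 7.28 in FT671_NEUR. ALDH1A3, which makes it in the developing eye and nose of the mouse, had 48.0 ± 8.99 counts in DMSO_NEUR and 619 ± 31.4 in FT671_NEUR (3.68, SE 0.14, adjusted p = 4.30e-13). Per kilobase of transcript, ALDH1A1 made up 18.2% ± 2.57 of the 3 genes in UNDIF, 90.3% ± 1.50 in NEUR, 91.6% ± 0.670 in DMSO_NEUR and 0% in FT671_NEUR. ALDH1A2 made up 56.9% ± 1.33 in UNDIF and ALDH1A3 96.7% ± 1.18 in FT671_NEUR. The summed level of the 3 genes was 74.5 ± 2.35 counts per kilobase in UNDIF, 164 ± 22.0 in NEUR, 171 ± 39.4 in DMSO_NEUR and 163 ± 7.01 in FT671_NEUR, and the last 3 groups overlapped. These shares use the longest annotated transcript of each gene and measure RNA, not enzyme activity.

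**Figure D3:**
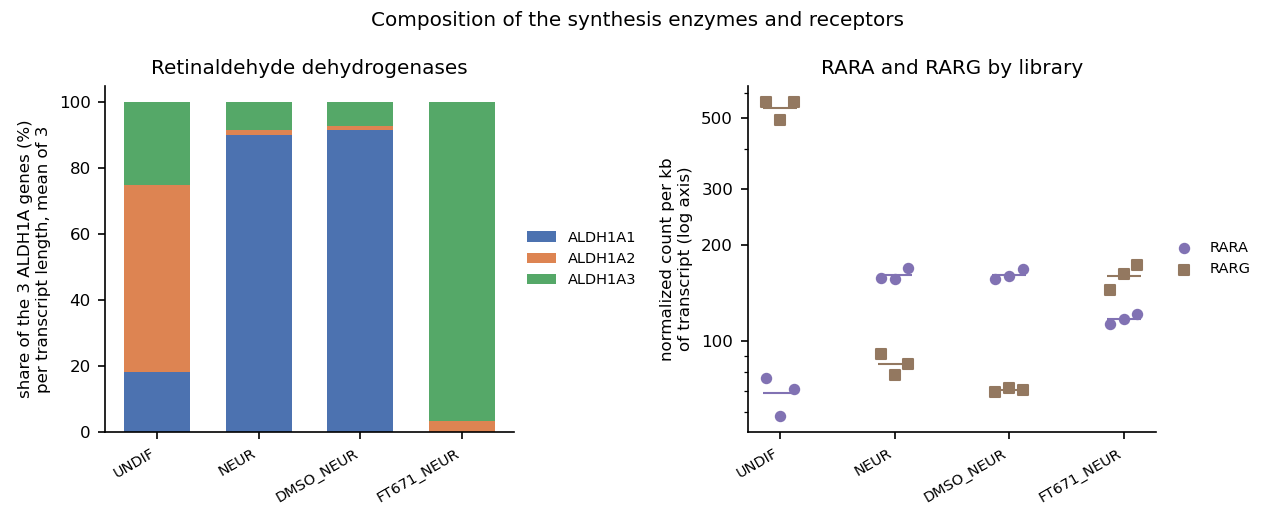
Left, mean share of the 3 ALDH1A genes in their sum, per kilobase of transcript (bars from 0 to 100%, n = 3); right, RARA and RARG in counts per kilobase (log axis), points being libraries and dashes means. ALDH1A1 holds 90.3% in NEUR and 0% in FT671_NEUR, where ALDH1A3 holds 96.7%; RARG lies above RARA in UNDIF and FT671_NEUR and below it in the other groups.

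Of 66 further pathway genes that were listed, 43 had a row. In NEUR against UNDIF 17 were higher, 17 lower and 9 not called; in FT671_NEUR against DMSO_NEUR 21 were higher, 15 lower and 7 not called. The shares called are near the 82.0% and 79.8% of all genes given above. Their median sizes were 0.57 and 0.95 on the log2 scale, beside 0.62 and 0.60 for all genes.

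Among genes of uptake and storage, STRA6, the membrane receptor for retinol, did not pass in NEUR against UNDIF and fell with FT671 from 416 ± 20.7 to 65.9 ± 10.8 counts (log2 fold change -2.65, SE 0.11, adjusted p = 1.17e-12). DGAT1, an acyltransferase that can also make retinyl esters, rose with FT671 by 1.92 on the log2 scale, and LRP2, an endocytic receptor that takes up retinol-binding protein, fell in NEUR by 1.84 and rose with FT671 by 1.32. LRAT and DGAT1, which both form esters, were thus higher with FT671, and STRA6 lower. Among the oxidoreductases, RDH10, which starts retinoic acid synthesis, rose with FT671 by 0.91, RDH13, a mitochondrial retinol dehydrogenase, by 2.01 and RDH11 by 0.36. In NEUR against UNDIF, RDH13 fell by 0.40, ADH5 fell by 0.45 and DHRS4 rose by 0.47.

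CYP26A1, which breaks down retinoic acid, had 1318 ± 106 counts in UNDIF. The differentiated groups had 6 reads in NEUR, 5 in DMSO_NEUR and 3 in FT671_NEUR, summed over their libraries. The ratio of UNDIF to NEUR was 670-fold, with a 95% exact interval of 307 to 1825 that covers counting error only.

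Of 13 genes with a row that retinoic acid is known to induce, 7 were higher and 4 lower in NEUR against UNDIF, where 40.4% of all genes were higher and 41.6% lower. With FT671, 6 were higher and 6 lower, where 40.2% of all genes were higher and 39.7% lower, so the counts are no result about these genes. TGM2, a transglutaminase, rose in NEUR by 7.74 and with FT671 by a further 1.06. HOXB2, a hindbrain gene, had no read in UNDIF or FT671_NEUR but 93.7 ± 28.5 counts in NEUR and 79.1 ± 27.0 in DMSO_NEUR, at least 74.8-fold more in DMSO_NEUR than with FT671. CDX1, an early responder in mouse embryos, rose with FT671 by 5.78. RET, a receptor of neural crest and kidney cells, fell in NEUR by 4.80 and rose with FT671 by 2.96. The list includes CRABP2 and DHRS3.

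Among the receptors' partners, RXRB rose in NEUR by 0.73 and with FT671 by 0.31. Of 11 corepressors and coactivators, 2 were higher and 6 lower with FT671, beside 40.2% and 39.7% of all genes. NRIP1, a ligand-dependent corepressor, rose in NEUR by 1.94 and fell with FT671 by 1.80, ZNF423, a zinc finger protein known to bind retinoic acid receptors, fell in both comparisons, by 1.24 and 2.68, and NCOA3, a coactivator, rose with FT671 by 1.28. TBL1X fell in NEUR by 0.57 and CREBBP, a histone acetyltransferase, fell with FT671 by 0.71. The NEUR libraries of NRIP1 ranged from 2496 to 3911 counts. This spread was not particular to NRIP1, as NCOA3 ranged from 671 to 1027 and CREBBP from 1897 to 2867. It was narrower for TBL1X (2122 to 2474) and ZNF423 (603 to 714). Of 9 other receptors that pair with RXR, 7 were higher and 1 lower with FT671, beside 40.2% and 39.7% of all genes. Among the higher ones were PPARG and THRB, by 2.96 and 2.87, and NR1H3 and PPARA, by 1.50 and 1.48. VDR, the vitamin D receptor, rose in NEUR by 4.99 and PPARG by 3.47, while THRB fell by 1.45 and NR1H3 by 1.01. NR2F1, a COUP factor that is known to compete for retinoic acid response elements, rose in NEUR by 6.57 and had 1 read in FT671_NEUR against 2206 in DMSO_NEUR, a ratio of 2039 with a 95% exact interval of 364 to 80155. NR2F2, its paralog, rose in NEUR by 3.49 and did not pass with FT671 (0.12, adjusted p = 0.245), and NR2F6 rose in NEUR by 0.74 and fell with FT671 by 0.31.

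**Figure D4:**
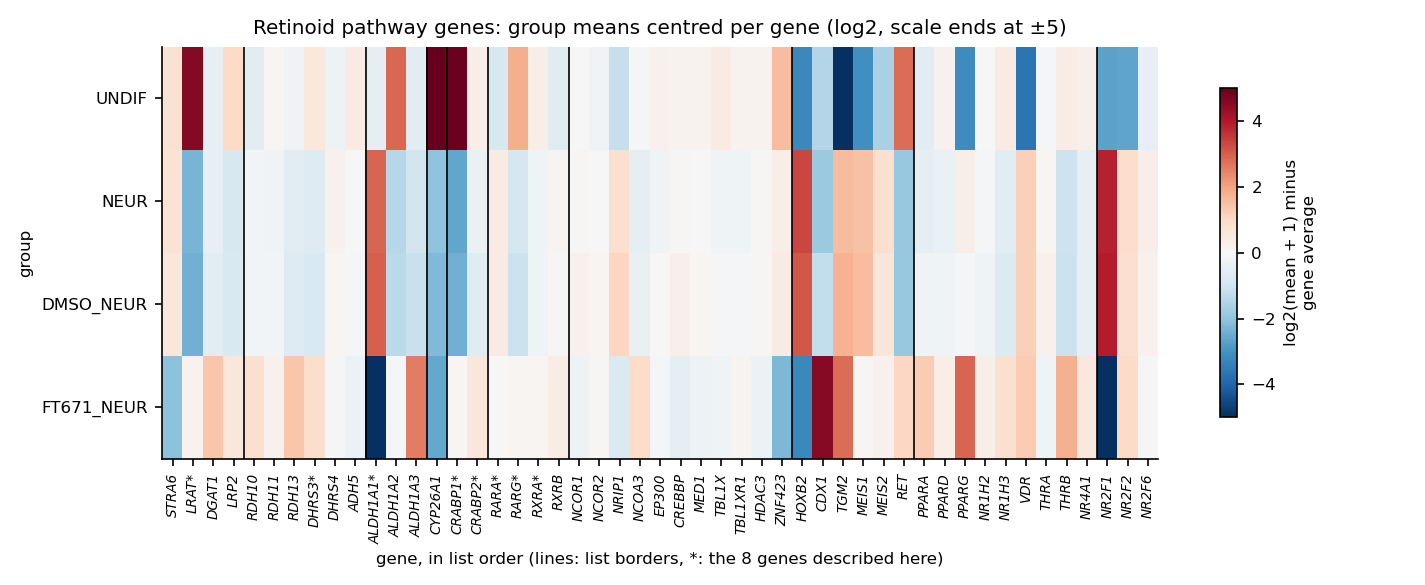
Group means of pathway genes with a row, as log2(mean + 1) minus each gene's average over the 4 groups (colour, ends at ±5), in list order with list borders as lines; asterisks mark the 8 genes. NEUR and DMSO_NEUR resemble each other, and CYP26A1, LRAT and CRABP1 are highest in UNDIF, HOXB2 in NEUR, and CDX1 and ALDH1A3 in FT671_NEUR.

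For each of the 8 genes, the genes with the most similar pattern were found among 11920 genes, as the smallest root mean square difference of centred log2 values over 12 libraries. LRAT was closest to CRABP1 (0.47 log2 units), and CRABP1 to FOXH1 (0.43) and then LRAT. ALDH1A1 was closest to POU3F2 (0.31), a neural transcription factor that also had no read with FT671, and to KLHL14 (0.49). DHRS3 was closest to OSBP2 (0.06) and SOD3 (0.16), CRABP2 to LPAR2 (0.09) and EPHB6 (0.10), and RARA to CPNE2 (0.08) and PYGB (0.09). RARG was closest to GOLGA2P5 and AIF1L (both 0.15), and RXRA to ZFP64 (0.08) and CCNE1 (0.09). Small distances are easy to reach for genes that change little, so they are not compared between genes.

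Markers of cell types differed between the same groups. The summed level of 6 neural progenitor markers with a row, of 8 listed, was 41538 to 43026 in NEUR. It was 44601 to 45830 in DMSO_NEUR and 5726 to 6051 in FT671_NEUR, where NES (5852 counts) made up nearly all of it. All 6 were lower with FT671, beside 39.7% of all genes. PAX6 fell from 3985 to 13.0 ± 4.42 counts, CDH2 from 11311 to 52.5 ± 14.7 and FABP7 from 18.5 to 0. In NEUR against UNDIF 4 of the 6 were higher, beside 40.4% of all genes. The other markers, FABP7 and SOX2, fell there from 506 to 16.4 and from 9263 to 1335 counts. The sum of all 8 epithelial surface ectoderm markers was 13470 to 13702 in UNDIF and 44518 to 55130 in NEUR. It was 35405 to 37368 in DMSO_NEUR and 145459 to 161440 in FT671_NEUR. KRT8 was the largest part, at 26117 counts in DMSO_NEUR and 87412 in FT671_NEUR. All 8 markers were higher with FT671, beside 40.2% of all genes. In NEUR against UNDIF 3 were higher and 5 lower, beside 40.4% and 41.6%. In DMSO_NEUR against NEUR 4 were lower and 4 not called, where 0.391% of all genes were lower. The 6 pluripotency markers with a row, of 7 listed, summed to 54540 to 55578 in UNDIF. Their sum was 11466 to 12814 in DMSO_NEUR and 3060 to 3518 in FT671_NEUR. The largest part was LIN28A in UNDIF (35112 counts) and DMSO_NEUR (8861), and DPPA4 in FT671_NEUR (1381). SOX2 is in both this list and the neural progenitor list. POU5F1 was 4.23 ± 2.10 counts in FT671_NEUR against 2459 ± 172 in UNDIF. In FT671_NEUR against DMSO_NEUR, 3 of the 6 were higher and 2 lower, beside 40.2% and 39.7% of all genes. ZFP42 rose from 113 to 848 counts, while LIN28A fell from 8861 to 1097 and SOX2 from 1585 to 13.0. The mesenchyme sum over 4 markers of 5 was 43188 to 57078 in DMSO_NEUR and 111259 to 115661 in FT671_NEUR. COL1A1 and COL1A2 made up nearly all of it and were higher with FT671, while COL3A1 fell by 3.22 and PDGFRB by 1.61 on the log2 scale. The neural crest sum over 4 markers of 5 overlapped between these groups, at 364 to 480 and 437 to 529, but its markers moved in opposite directions. PAX3 fell from 174 to 11.3 counts and SOX10 from 17.8 to 10.2, while SNAI2 rose from 231 to 449 and FOXD3 from 0 to 21.5. The 3 early neuron markers with a row, of 5 listed, summed to 308 to 314 in DMSO_NEUR and 25.4 to 27.6 in FT671_NEUR. Their sum was highest in UNDIF, at 381 to 405, where DCX had 345 counts against 28.2 in DMSO_NEUR. The part of these markers' cell types in the changes of the 8 genes was not tested.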

How the data were processed

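RNA of 12 H9 libraries was sequenced, and the labels give polyadenylated RNA sequenced by BGI. Per the submitters' processing notes the authors used STAR, HTSeq, DESeq2 and R 4.3.1 with the hg19 build; parameters and annotation were not given in the sources used here. The deposited signal is a normalized value: after subtraction of 1, 100% of values are whole multiples of 1 step per library within a tolerance of 0.001 (read counts over a size factor). One deposited column holds p-values adjusted by the authors for stem cells against neural stem cells and was used in no test. A further 32 of 47 columns were not used. The sheet title names a USP7 heterozygote; the labels, which give wild type, were followed.

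limma 3.58.1 (R 4.3.3) was fitted to log2(normalized count + 1) over all 13310 genes and 12 libraries with 4 group means and a trend; Benjamini-Hochberg adjustment ran over all genes within each of 5 comparisons, with calls at an adjusted p under 0.05. Raw counts were not among the values used. The planned edgeR and DESeq2 fits were not run, because the recovered reads of 1 library did not meet the criterion set for count tests. That library, NEUR replicate 3, had a step of 0.996, and its values were whole multiples of it as in every library. As an alternative, limma voom was run on the recovered reads. The fit was tested on simulated data in which few genes changed. Most genes differ between the groups here, so the simulation does not test the scaling. Lengths are those of the longest transcript in GENCODE release 29, and the genes' positions in the authors' build were not used. Members and gene lists were chosen with earlier results of these data known. Named genes are the 8 members, up to 4 called genes with the largest change per pathway list in each main comparison, and the 2 most similar genes per member; USP7 and the single marker genes fall outside it and were chosen after their values were seen. Some genes that the rule names are not reported here or drawn, though the list counts include them. The strand setting was not given, so antisense and paralog reads cannot be told apart. Alternatives were other scalings, pseudocounts, filters, fits and each library left out.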

Additional observations from a re-analysis of the deposited data

How the results depend on the processing

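Of 840 recalculated values of the 8 genes in 5 comparisons, 825 kept direction and call, 12 reversed and 3 lost the call. All 8 calls in NEUR against UNDIF, DMSO_NEUR against UNDIF and FT671_NEUR against DMSO_NEUR held in every alternative run. In FT671_NEUR against UNDIF, scaling to library totals moved CRABP2 to -0.0295 and left 1 of the 3 genes higher; this scaling put the median of all genes at -0.27, against -0.17 in NEUR against UNDIF and -0.11 in FT671_NEUR against DMSO_NEUR, so changes of that size depend on it. In DMSO_NEUR against NEUR, uncalled changes crossed 0 with a library left out, with ranges of -0.64 to 0.23 for LRAT, -0.0629 to 0.28 for ALDH1A1, -0.0486 to 0.43 for CRABP1, -0.0278 to 0.0359 for RARA and -0.00498 to 0.0565 for RXRA; RARA also did with library totals (-0.00987) and with size factors from the table (-0.00113). The whole-table counts there, 1 higher and 52 lower, became 0 higher with limma voom (an alternative chosen after seeing the data), a pseudocount of 8 or a mean of at least 100, 2 higher without the trend, and 0 and 0 with only the groups compared (729 genes at an unadjusted p under 0.05); with a library left out they ran from 0 to 1 higher and from 24 to 55 lower. Replicate numbers did not pair libraries (Pearson r of deviations from -0.303 to 0.115). The replicate block gave 5324 higher and 5493 lower in NEUR against UNDIF, 40 lower in DMSO_NEUR against NEUR, and changed no call of the 8 genes. The planned edgeR and DESeq2 fits were not run. Genes under about 10 reads, such as CYP26A1 after differentiation, are limited by depth. Values of pathway genes beyond the 8 are given from the main fit only.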
